A study of Mus musculus with 20 samples.

Results

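The small nuclear RNA (snRNA) genes were followed in RNA sequencing of SIMS cells, a mouse salivary gland cell line. The set holds the genes typed as snRNA in the GENCODE M21 annotation that reached 50 or more counts summed over the 20 libraries. It came to 93 of the 1383 snRNA genes in the count table, which lists 55471 genes in all. Of the other snRNA genes, 950 had no count in any library and 340 had 1 to 49 counts. The genes just under the threshold were Gm23690 with 47 counts, Gm25337 with 48 and Gm25630 with 49, and those just inside it were Gm22965 with 50, Gm23628 with 52 and Gm26446 with 53. The members were thus chosen by their summed counts, a readout of these libraries, and 12 of the 20 libraries are Zcchc8 KO, so that a gene high in those had more chance to enter.

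The study compared the unedited line, called wild type, with cells in which CRISPR/Cas9 was used to knock out Btbd7, which served as the negative control, or Zcchc8. The 5 groups, which are wild type, Btbd7 KO and clones 1, 2 and 3 of Zcchc8 KO, had 4 libraries apiece, all grown in DMEM with 10% FBS. Each Zcchc8 KO group is 1 clone, and the labels do not say whether Btbd7 KO is a clone or a pool, or whether the libraries of a group came from separate cultures. P-values therefore measure only the spread between libraries, which may be technical. ZCCHC8 is a scaffold of the nuclear exosome targeting complex, which hands short-lived nuclear RNAs to the RNA exosome for decay.

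Spliceosomal snRNAs are the RNA cores of the small nuclear ribonucleoproteins that recognise and remove introns. U1 pairs with the 5′ splice site and U2 with the branch point, U4 and U6 enter as a pair with U5, and U11, U12, U4atac and U6atac serve the minor spliceosome. Most are made by RNA polymerase II with Integrator cutting the 3′ end, and then receive a ring of Sm proteins at a uridine-rich site. U6 and U6atac are made by RNA polymerase III and carry no Sm ring. Each family also has many copies in the mouse genome, a large share of which are decayed pseudogenes.

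The first sequences shown are the RNAs of Rnu1a1 and Rnu2-10, of the major spliceosome, read from the GENCODE M21 transcripts, whose build is GRCm38. They are the reference to which the U1 and U2 copies are compared. Capitals mark the Sm-site-like motif, searched on the transcript strand. The form in Rnu1a1 is ATTTGTG. Rnu2-10 and Rnu12 hold ATTTTTG. Rnu11 holds ATTTTTTG. A form with 1 more T, ATTTTTTTG, was searched as well. Rnu1a1 lies at chr11:87422867-87423030, plus strand, in an intron of Tex14. Rnu2-10 lies outside other genes at chr11:101658238-101658428, plus strand.
Rnu1a1: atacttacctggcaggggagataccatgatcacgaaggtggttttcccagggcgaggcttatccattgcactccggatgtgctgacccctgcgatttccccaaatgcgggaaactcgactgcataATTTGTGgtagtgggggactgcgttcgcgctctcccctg
Rnu2-10: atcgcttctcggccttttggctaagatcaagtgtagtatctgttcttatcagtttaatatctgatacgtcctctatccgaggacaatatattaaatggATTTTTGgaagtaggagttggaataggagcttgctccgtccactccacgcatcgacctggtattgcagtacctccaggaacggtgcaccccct

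The minor spliceosome is represented by Rnu11 (chr4:132270080-132270213, minus strand), which overlaps an exon of the lincRNA Gm28872 on the other strand, and by Rnu12 (chr15:83149644-83149794, plus strand), which lies outside other genes. They are printed because the 2 RNAs work in 1 particle and only that of Rnu11 passed the test with all libraries. Gm25541 (chr2:27539805-27539930, minus strand) matched none of the Rnu-named genes and holds no motif. It is the U6atac gene by background knowledge of its sequence.
Rnu11: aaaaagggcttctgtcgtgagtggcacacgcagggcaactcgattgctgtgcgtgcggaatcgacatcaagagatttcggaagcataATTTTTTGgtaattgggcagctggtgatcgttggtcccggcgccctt
Rnu12: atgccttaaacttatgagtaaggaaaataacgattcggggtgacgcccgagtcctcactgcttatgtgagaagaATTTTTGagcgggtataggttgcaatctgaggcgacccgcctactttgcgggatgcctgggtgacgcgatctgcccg
Gm25541: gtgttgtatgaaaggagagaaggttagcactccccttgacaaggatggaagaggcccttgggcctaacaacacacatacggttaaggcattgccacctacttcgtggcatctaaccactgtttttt

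Gm24265 (chr5:115489459-115489599, plus strand) and Gm24407 (chr5:115490254-115490394, plus strand) are a tandem pair with 654 bases between them. Both are U4 genes by background knowledge, since the annotation names no U4 gene to match. Gm24407 differs from Gm24265 by G88A and C99A, the base of Gm24265 being given first and positions counted from 1 at the 5′ end.
Gm24265: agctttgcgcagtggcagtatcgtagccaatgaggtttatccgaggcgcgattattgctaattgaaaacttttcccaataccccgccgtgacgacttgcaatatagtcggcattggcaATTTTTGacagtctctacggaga
Gm24407: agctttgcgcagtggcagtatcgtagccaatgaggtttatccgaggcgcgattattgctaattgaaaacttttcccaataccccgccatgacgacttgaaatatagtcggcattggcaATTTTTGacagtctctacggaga

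Gm25360 (chr1:72226240-72226430, plus strand) and Gm22973 (chr12:59040335-59040525, plus strand) are the U2 copies with the most counts. Against Rnu2-10, with its base given first, Gm25360 carries C78T, A95G, G109C and C154T. Gm22973 carries 9 substitutions, namely C67T, C78T, A107G, G109A, C148T, G152A, C170T, C179T and G183A.
Gm25360: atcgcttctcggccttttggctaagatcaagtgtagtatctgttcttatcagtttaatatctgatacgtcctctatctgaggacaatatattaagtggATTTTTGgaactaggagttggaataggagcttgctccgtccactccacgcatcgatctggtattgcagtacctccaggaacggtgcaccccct
Gm22973: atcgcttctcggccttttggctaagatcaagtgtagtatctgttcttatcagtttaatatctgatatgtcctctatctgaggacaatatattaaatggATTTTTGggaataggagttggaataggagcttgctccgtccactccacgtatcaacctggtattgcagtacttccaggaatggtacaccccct

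By name and position the members fell into 5 Rnu-named genes, 24 Gm-named genes outside other genes, 58 Gm-named genes inside another gene on its strand, all of them intronic, and 6 inside a gene on the opposite strand. By best match to the Rnu-named genes there were 18 U1, 14 U2, 6 U5 and 48 U6 copies, 1 U11, 1 U12 and 5 genes that matched none. The motif was found in 37 of the 93 members (39.8%) and in 244 of all 1383 snRNA genes (17.6%). A near-complete copy, with at least 95% identity over at least 95% of the named gene, was found for 32 members, the named genes included. There were 14 members that were identical to at least 1 other snRNA gene, and for these the counts depend on how reads that fit several places were handled, which is not given in the sources used here. Rnu1a1 and Gm22068 have 6 identical genes each, and Rnu2-10, Gm23971, Gm23849 and Gm24950 have 3 each. The 5 members with the most counts, Gm24265, Gm25360, Gm22973, Rnu12 and Gm25939, have none.

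Gene counts summed to between 6833258 and 17771804 per library, with clone 1 the shallowest group at 6833258 to 7683444. Zcchc8 RNA was at 65.1 ± 2.92 CPM (counts scaled by library total and TMM factor; SD, n = 4) in wild type, 62.3 ± 3.76 in Btbd7 KO, 60.3 ± 4.28 in clone 1, 23.3 ± 1.35 in clone 2 and 54.6 ± 4.84 in clone 3. Its level in clone 1 did not pass the test against wild type (edgeR quasi-likelihood test, log2 fold change -0.11, adjusted p = 0.291). An edit by Cas9 need not lower the RNA, and the protein is not measured in these files. Ductal epithelial markers were expressed throughout, with Krt7 at 602 to 1473 CPM and Epcam at 304 to 435. Of the acinar markers Aqp5 was at 108 to 187 CPM, with Bhlha15 up to 2.13, Amy1 up to 0.613 and Smgc at 0. Of the other cell types, Col1a1 was at 8.65 to 26.6, Cd68 at 4.02 to 12.9 and Col3a1 at up to 9.16, while Vim, Pdgfra, Pecam1, Cdh5 and Ptprc reached at most 2.35, 0.744, 1.02, 0.137 and 0.684 CPM. Wild type replicate 1 stood apart, with 14245 genes detected against 17442 to 20889 in the other 19 libraries, and 51 of the 93 members at 0 against 1 to 15. Where leaving it out changed a gene's call given for the mean of the clones, or moved that fold change by over 1.5 times, both values are given.

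The comparison of the Zcchc8 KO clones with wild type asks which snRNA genes were at another level where Zcchc8 had been edited. Of the 93 members, 63 had enough counts to be tested, and 26 of these rose for the mean of the 3 clones while 0 fell. The share of all 15297 genes tested that rose was 16.2%, and 19.9% fell (edgeR quasi-likelihood test, adjusted p under 0.05 over all genes tested). The median log2 fold change was 0.962 over the 63 members and -0.0057 over all genes. With the counts of each line summed and lines as replicates, 3 Zcchc8 KO clones against wild type and Btbd7 KO, 16 members were called higher, beside 5.34% of all genes. At an unadjusted p under 0.05, 2 members were lower, and DESeq2 called 27 higher and 0 lower. The 30 members that were not tested had too few counts. In bulk RNA a change in the number of cells that hold an RNA and a change in its amount per cell cannot be told apart. Of those tested, 36 passed the cutoff of 0.73 CPM in at least 4 of the 8 control libraries, with 18 called higher, and 27 had fewer control libraries over it, with 8 called higher. Gm22068, Gm23143, Gm23296, Gm23472, Gm24497, Gm24950, Gm22540 and Gm26243 are those 8, and since they entered the test through the Zcchc8 KO libraries their calls are a description.

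Summed over the set, snRNA gene counts came to 373 ± 68.3 CPM, here without TMM scaling, in wild type and 309 ± 62.6 in Btbd7 KO (SD, n = 4 each). Without wild type replicate 1 the wild type sum was 340 ± 15.5 (SD, n = 3). Clone 1 reached 977 ± 79.2, with clones 2 and 3 at 599 ± 63.4 and 601 ± 50.3. The highest wild type library, replicate 1, was at 474, under the lowest Zcchc8 KO library at 545. In 18 of the tested members every Zcchc8 KO library lay above every wild type library, against 6.01% of all genes tested. In 14 members they also lay above every Btbd7 KO library, against 4.62% of all genes. Of the 18 and the 14, 3 and 1 had fewer than 4 control libraries over the filter's cutoff. Those entered the test through the Zcchc8 KO libraries, so their separation is a description. Among the 36 members with at least 4 control libraries over the cutoff the numbers were 15 and 13.

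**Figure D1:**
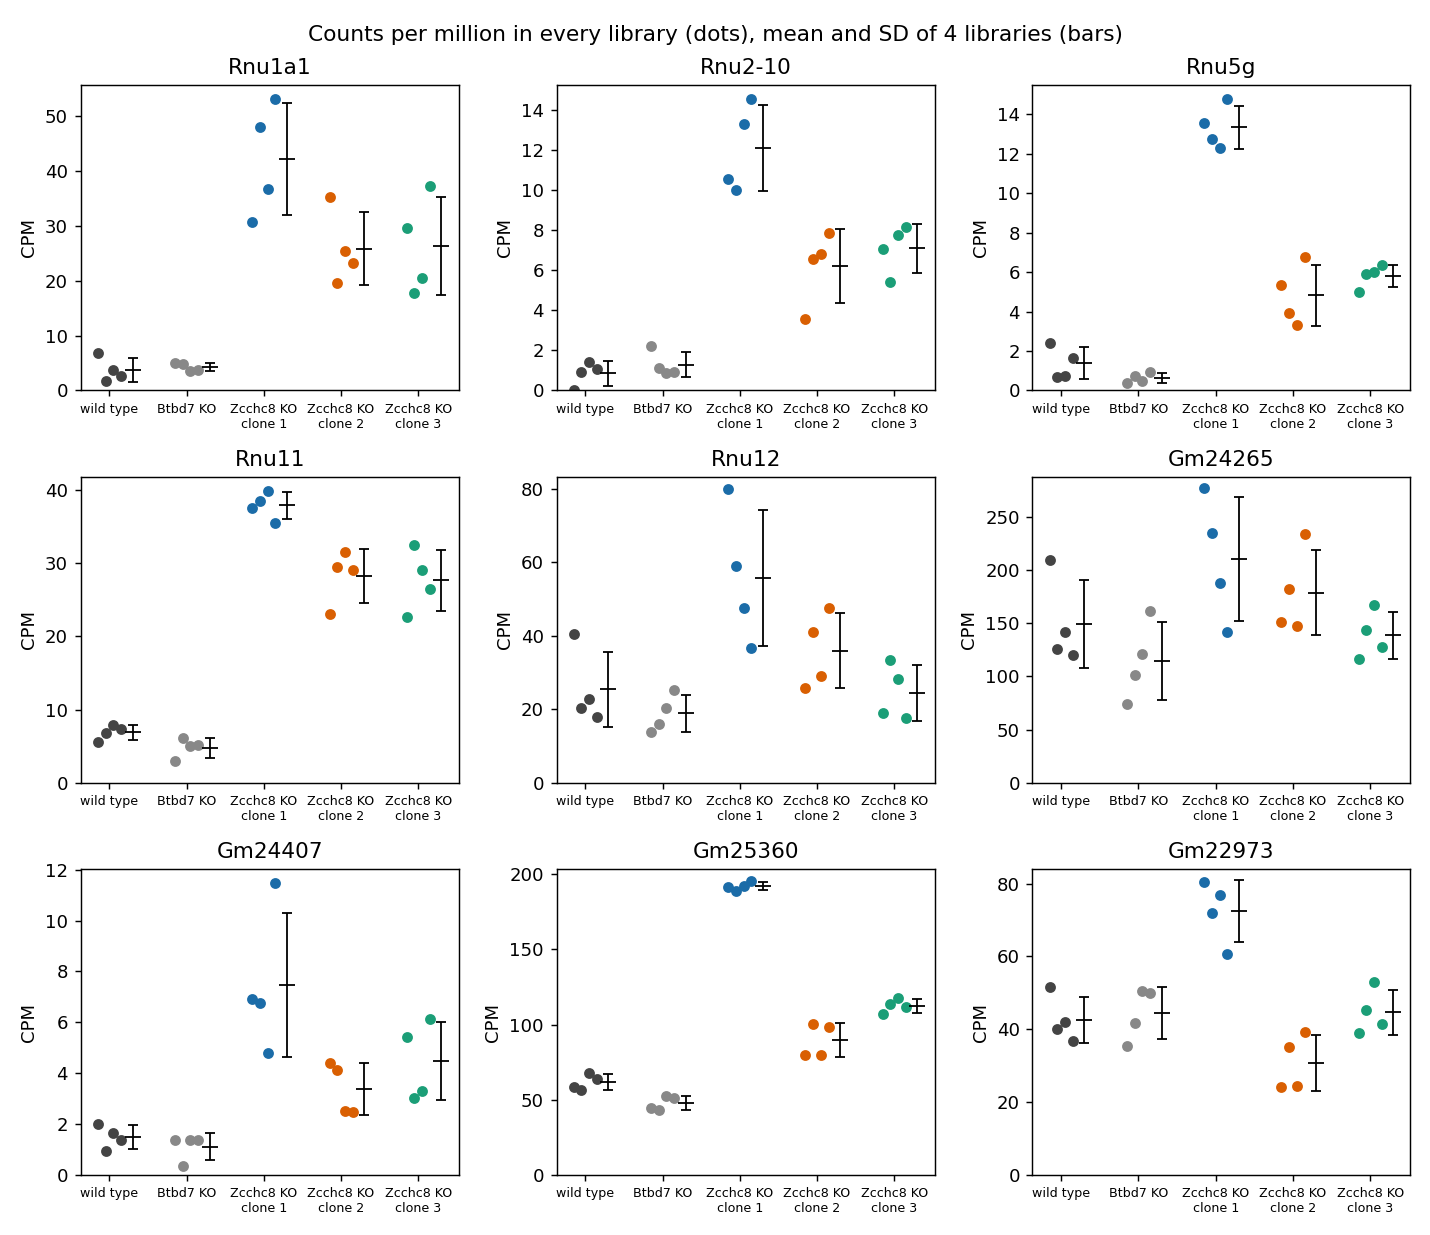
Expression of 9 snRNA genes in each library (CPM, linear axes from 0), with the mean and SD of the 4 libraries of each group. In Rnu1a1, Rnu2-10, Rnu5g, Rnu11, Gm24407 and Gm25360 every Zcchc8 KO library lies above every control library, while the groups overlap for Rnu12, Gm24265 and Gm22973.

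U1 carries the sequence that pairs with the 5′ splice site. Rnu1a1 was at 6.83, 1.74, 3.66 and 2.64 CPM in wild type replicates 1 to 4 and at 4.94, 4.91, 3.60 and 3.80 in Btbd7 KO, and in the 12 Zcchc8 KO libraries it ranged from 17.7 to 53.1 with a median of 30.1. No Zcchc8 KO library overlapped a control library. The difference was a log2 fold change of 3.06 (SE 0.27, edgeR quasi-likelihood test, adjusted p = 2.37e-09; 3.56 without wild type replicate 1), and Btbd7 KO did not pass the test (0.26, adjusted p = 0.659). Gm24830, identical to the Rnu1b6 gene, went from 0.868 to 2.81 CPM in wild type to a median of 14.7 in Zcchc8 KO (6.63 to 21), a log2 fold change of 2.94 (SE 0.22, adjusted p = 1.42e-10). Gm22513, which differs from Rnu1a1 by T60C, changed by 1.85 and Gm22068, identical to Rnu1a1 and in the same 4013 bases of chromosome 11, by 2.38. All 4 tested near-complete U1 copies were called higher, with a median of 2.66. Of them, Gm22068 was over the cutoff in 0 of the 8 controls, so it was tested only because it was high in Zcchc8 KO. Of the 7 tested diverged U1 copies 0 were called, with a median of 0.11.

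U2 pairs with the branch point of an intron. Of 14 U2 members, 12 were tested, all of them full length, and 9 rose, with a median log2 fold change of 2.67. Rnu2-10 was at 0, 0.926, 1.42 and 1.06 CPM in wild type and at 2.23, 1.13, 0.869 and 0.929 in Btbd7 KO. Its 12 Zcchc8 KO libraries ranged from 3.56 to 14.5 with a median of 7.83, all above the controls (log2 fold change 3.26, SE 0.38, adjusted p = 3.23e-07, and 2.88 without wild type replicate 1, where it was at 0). Gm23444, a copy on chromosome 11 that carries G109C, was at 0, 1.5, 0.598 and 0.528 CPM in wild type and at 8.54 to 27.0 in Zcchc8 KO, with a median of 14.0. Its log2 fold change of 4.43 (SE 0.36, adjusted p = 6.45e-10) was the largest of the members, and it was 5.27 without wild type replicate 2. Gm23444 is identical in sequence to Gm23472 of chromosome 1, so the separate values of the pair rest on how the reads were assigned.

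A cluster of 5 U2 genes spans 53579 bases of chromosome 11 (101604850 to 101658428). All 5, Gm26316, Gm23849, Gm24950, Gm23971 and Rnu2-10, were called higher, by log2 fold changes between 2.16 and 3.70. Gm23849, with the largest of these (SE 0.34, adjusted p = 7.33e-09), was at 1.73 ± 1.44 CPM in wild type, 2.65 ± 0.905 in Btbd7 KO, 23.3 ± 2.31 in clone 1, 23.3 ± 6.19 in clone 2 and 20.8 ± 1.39 in clone 3. Gm24950, Gm23849, Gm23971 and Rnu2-10 are identical in sequence, so their separate values rest on how the reads were assigned. Gm24950 was over the filter's cutoff in 11 Zcchc8 KO libraries and in 1 of the 8 controls, so it was tested only because it was high in Zcchc8 KO. Its fitted log2 fold change was 3.16, and 5.70 without wild type replicate 2, which held 1.04 CPM against 0, 0.149 and 0 in the others.

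Another group of 4 U2 genes spans 28959 bases of chromosome 1 (72226240 to 72255198). Gm25360, the second most counted member, was at 58.4, 56.6, 67.9 and 64.0 CPM in wild type and at 44.8, 43.1, 52.6 and 51.3 in Btbd7 KO, and at 79.7 to 196 in Zcchc8 KO with a median of 113. The groups did not overlap, and the log2 fold change was 1.02 (SE 0.07, adjusted p = 3.24e-11). With cell lines as replicates it was 1.25 and did not pass (adjusted p = 0.0584). Its neighbours Gm23472 and Gm24497 were over the cutoff in 0 of the 8 controls and in 11 and 7 Zcchc8 KO libraries, so they too were tested only because they were high there. Their fitted log2 fold changes were 3.34 and 4.16, and that of Gm23472 also rests on how reads were assigned between it and the identical Gm23444. Gm24497 held 3 counts over the wild type libraries and 124 over the Zcchc8 KO libraries, a depth-scaled ratio of 20.4 with a 95% counting interval of 6.83 to 100.4. That interval covers counting error only, and without wild type replicate 2, which held all 3 counts, the fitted value of Gm24497 was 6.59. Without wild type replicate 4 that of Gm23472 was 4.09.

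The fourth gene of that group, Gm25939, lies in an intron of the lincRNA D230017M19Rik. It was at 28.4, 15.4, 16.7 and 14.8 CPM in wild type and at 15.1 to 52.0 in Zcchc8 KO with a median of 23.7, so that the groups overlapped. Its log2 fold change was 0.44 (SE 0.22, adjusted p = 0.113) with all libraries and 0.73 (adjusted p = 0.00198) without wild type replicate 1. Gm22973, with the most substitutions among the full-length copies, was at 51.6, 40.0, 41.9 and 36.7 CPM in wild type, 35.5, 41.7, 50.6 and 49.8 in Btbd7 KO and 24.3 to 80.4 in Zcchc8 KO, with a median of 43.4. It was higher in clone 1 (0.77, adjusted p = 0.000173), lower in clone 2 (-0.46, adjusted p = 0.0175) and near wild type in clone 3 (0.06, adjusted p = 0.792). The mean over the clones was 0.12 (SE 0.12, adjusted p = 0.452), and 0.25 without wild type replicate 1, where it did not pass either. Gm25813, with C78T and G131C, had a log2 fold change of 0.39 (adjusted p = 0.491).

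**Figure D2:**
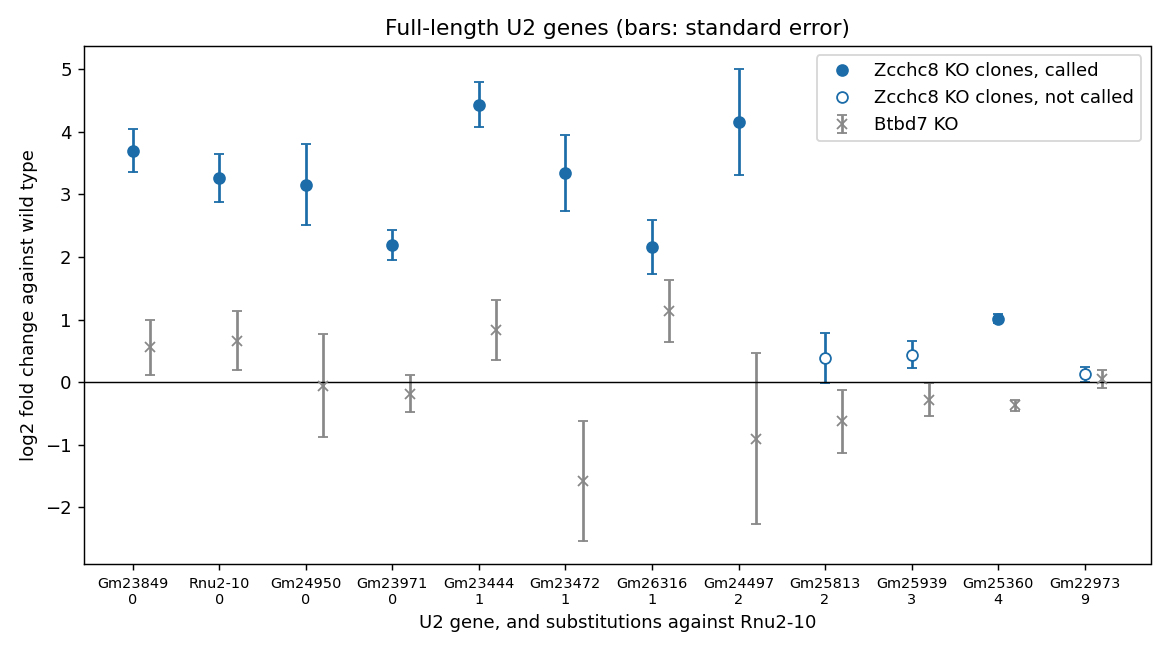
Log2 fold change (the 3 Zcchc8 KO clones averaged, against wild type, with its standard error) of the 12 full-length U2 genes, ordered by their number of substitutions against Rnu2-10. The 8 genes with 0 to 2 substitutions that were called lie between 2.16 and 4.43, Gm25360 with 4 substitutions lies at 1.02, and Gm25939, Gm25813 and Gm22973 lie at 0.44, 0.39 and 0.12.

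U4 base-pairs with U6 and keeps it inactive until the spliceosome assembles. Gm24265 had the most counts of all members, 36880 over the 20 libraries. It was at 210, 126, 142 and 120 CPM in wild type replicates 1 to 4, 73.8, 102, 121 and 162 in Btbd7 KO, and 116 to 278 in Zcchc8 KO with a median of 159. The groups overlapped, and the log2 fold change of 0.22 did not pass the test (SE 0.17, adjusted p = 0.347), while without wild type replicate 1, the highest of its group, it was 0.44 (adjusted p = 0.0122). Its neighbour Gm24407 was at 2.02, 0.926, 1.64 and 1.35 CPM in wild type and 1.39, 0.332, 1.36 and 1.35 in Btbd7 KO. In Zcchc8 KO it was at 2.49 to 11.5 with a median of 4.58, above every control library (log2 fold change 1.71, SE 0.33, adjusted p = 0.000211). The log2 ratio of Gm24407 to Gm24265 within a library went from -6.64 ± 0.29 in wild type to a mean of -5.19 over the 12 Zcchc8 KO libraries and was -6.77 in Btbd7 KO. No test is given for this ratio because the pair was picked with its values in view.

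U5 holds the exon ends during splicing, and all 6 U5 members were called higher, with a median log2 fold change of 2.17. Rnu5g was at 2.41, 0.694, 0.748 and 1.64 CPM in wild type and 0.362, 0.730, 0.496 and 0.929 in Btbd7 KO. In Zcchc8 KO it was at 3.31 to 14.8 with a median of 6.16, above every control library (log2 fold change 2.38, SE 0.29, adjusted p = 4.18e-07, and 2.79 without wild type replicate 1). Gm25313, which lies with Rnu5g within 5270 bases of chromosome 9, changed by 2.53. On chromosome 4, Gm25099, Gm23143 and Gm23287 lie within 21018 bases and changed by 1.14, 1.97 and 2.68. Gm23143 was over the cutoff in 3 of the 8 controls and in 12 Zcchc8 KO libraries, so its call is a description. Gm23287 went from 1.37 ± 0.704 CPM in wild type to 14.2 ± 0.648 in clone 1, while clones 2 and 3 were at 6.68 ± 1.31 and 7.55 ± 2.13 (SD over 4 libraries). Gm22265, in an intron of Hhat on the other strand, was at 14.8 CPM in wild type replicate 1 and at 3.01, 3.96 and 4.05 in replicates 2 to 4. Its log2 fold change was 1.33 (SE 0.27, adjusted p = 0.000319) with that library and 2.16 (adjusted p = 5.3e-14) without it. With cell lines as replicates it was 2.0 and did not pass (adjusted p = 0.107).

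U6 lies at the catalytic centre and formed the largest family by copies, 48 of the 93. Of 28 tested, 4 rose, a share close to the 16.2% of all genes, and the median log2 fold change was 0.50. The near-complete copies had a median of 0.745, with 3 of 9 called. The diverged copies had a median of 0.266, with 1 of 19 called, which was Gm22540 (1.81, SE 0.57, adjusted p = 0.0147). The 3 near-complete copies called, Gm26243 at 2.83, Gm23296 at 2.60 and Gm24019 at 0.96, are identical to one another, to Gm24859, and differ from Rnu6 by T107G. Rnu6 itself held 2 counts and is not a member. Gm22540 was over the cutoff in 2 of the 8 controls and Gm23296 in 1, each in 12 Zcchc8 KO libraries. Both were thus tested only because they were high in Zcchc8 KO, and their calls are a description. Gm26243 was over the cutoff in 1 of the 8 controls (0, 0, 0.299 and 0.410 CPM in wild type) and in 12 Zcchc8 KO libraries, its log2 fold change was 3.73 without wild type replicate 4, and against Btbd7 KO it was 1.32 and no longer passed (adjusted p = 0.0593).

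The minor spliceosome removes a small class of introns, with U11 and U12 in 1 particle. Rnu11 was at 5.53, 6.77, 7.92 and 7.27 CPM in wild type and 2.89, 6.11, 4.96 and 5.15 in Btbd7 KO. In Zcchc8 KO it was at 22.7 to 40.0 with a median of 30.5, all above the controls (log2 fold change 2.17, SE 0.14, adjusted p = 1.66e-11). Rnu12 was at 40.5, 20.4, 22.7 and 17.9 CPM in wild type, 13.7, 16.1, 20.5 and 25.3 in Btbd7 KO and 17.6 to 80.0 in Zcchc8 KO, with a median of 35.0. The groups overlapped. Its log2 fold change was 0.53 (SE 0.21, adjusted p = 0.0583) with all libraries and 0.86 (adjusted p = 0.000169) without wild type replicate 1, and it also passed without clone 1 replicate 4 (0.59, adjusted p = 0.0342), without clone 2 replicate 1 (0.58, adjusted p = 0.042), without clone 3 replicate 1 (0.57, adjusted p = 0.0475) and without clone 3 replicate 4 (0.57, adjusted p = 0.0426). It passed as well against Btbd7 KO (0.97, adjusted p = 0.00126), without TMM scaling (0.61, adjusted p = 0.0309), at equal depth (0.56, adjusted p = 0.0424) and with no filter beyond 1 count (0.53, adjusted p = 1.77e-06). In the other 20 of the 29 alternatives, cell lines as replicates among them, Rnu12 did not pass, with a log2 fold change down to 0.41. By clone, the log2 fold change of Rnu12 was 1.14 (adjusted p = 0.00114) in clone 1, with 0.51 (adjusted p = 0.132) and -0.07 (adjusted p = 0.868) in clones 2 and 3. The log2 ratio of Rnu11 to Rnu12 within a library was -1.82 ± 0.71 in wild type, -1.47 there without replicate 1, -1.98 in Btbd7 KO and -0.20 over the 12 Zcchc8 KO libraries, again with no test. Gm25541, the U6atac gene, was at 0.585, 0.984, 0.673 and 0.704 CPM in wild type, 0.663, 1.99, 1.24 and 1.10 in Btbd7 KO and 1.40 to 5.73 in Zcchc8 KO, with a median of 2.23 (log2 fold change 1.87, SE 0.38, adjusted p = 0.000335). Its Zcchc8 KO libraries lay above every wild type library and overlapped Btbd7 KO replicate 2, and with cell lines as replicates it did not pass (1.51, adjusted p = 0.097).

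Across the classes, 4 of 5 tested Rnu-named genes were called higher, with a median log2 fold change of 2.38, and 15 of 21 tested Gm-named genes outside other genes, with a median of 1.85. Inside a gene on the opposite strand 3 of 4 were called, with a median of 1.57, and on the same strand 4 of 33, with a median of 0.418. Within the last class the 8 tested near-complete copies held all 4 calls and a median of 1.48. Of those called, Gm23472, Gm24497 and Gm22068 were over the cutoff in 0 of the 8 controls, so their calls are a description. The 25 tested diverged copies held 0 calls and a median of 0.11. In the other classes, the calls of Gm23143, Gm24950, Gm23296 and Gm26243 outside other genes, and of Gm22540 on the opposite strand, are a description for the same reason. These were over the cutoff in 3, 1, 1, 1 and 2 of the 8 controls. By sequence alone, 19 of 29 tested near-complete copies and 7 of 34 tested others were called. The near-complete calls include Gm23472, Gm24497, Gm22068, Gm24950, Gm23296 and Gm26243, and the other calls Gm23143 and Gm22540, all with that limit. The others are not all diverged copies. They include 4 U5 copies, all called, and Gm24407 and Gm25541, called, and Gm24265, not called, which had no named gene to match. With the Sm-site-like motif 21 of 32 were called and without it 5 of 31. Classes share families and clusters, and the same libraries, so these counts are a description beside the 16.2% of all genes.

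**Figure D3:**
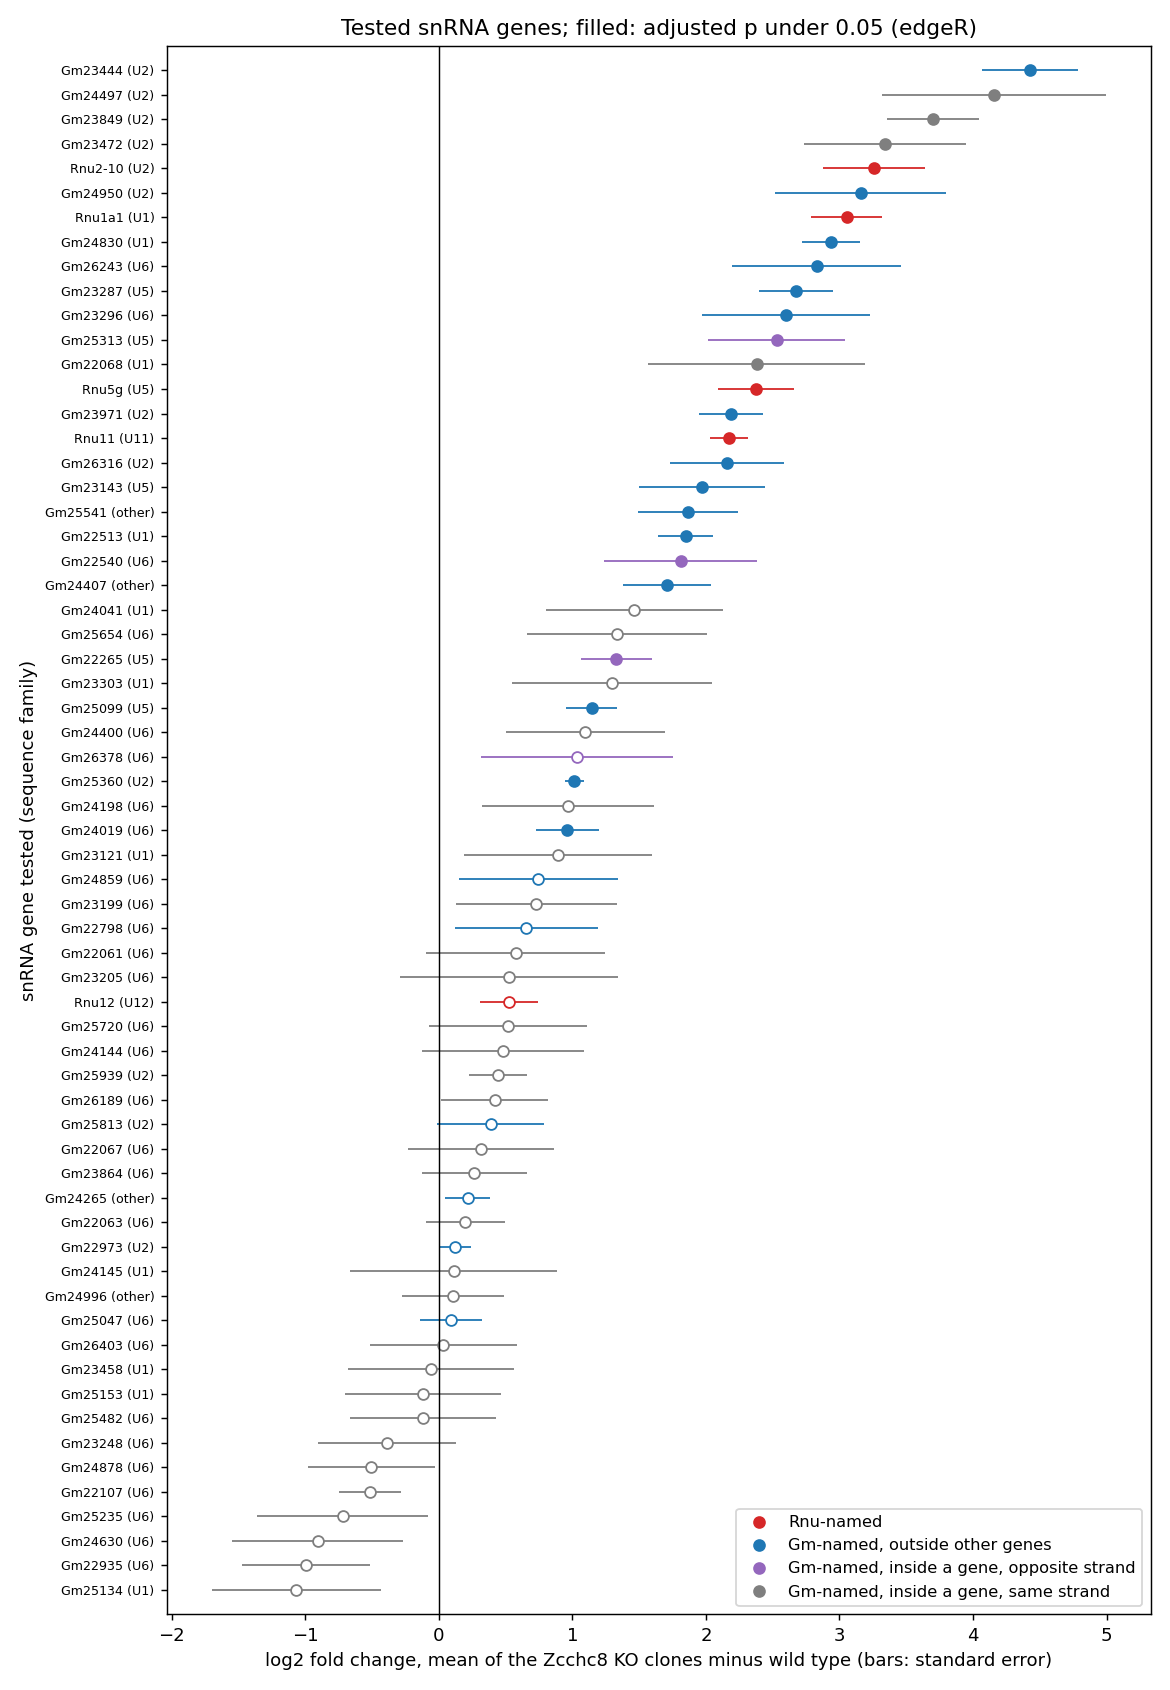
Log2 fold change (the 3 Zcchc8 KO clones averaged, against wild type) with its standard error for the 63 tested snRNA genes, coloured by name and position, filled where the adjusted p was under 0.05. The called genes lie between 0.96 and 4.43, and most same-strand intronic copies lie near 0 and are open.

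The genes that hold intronic members were read in the same fit. Of 58 distinct host genes tested, 7 rose and 16 fell, with a median log2 fold change of -0.04, beside the 16.2% and 19.9% of all genes. Among these hosts, 55 hold a Gm-named member on their own strand and 3 hold one on the opposite strand. Tex14, the host of Rnu1a1 on the same strand, rose by 1.95 (SE 0.26, adjusted p = 2.28e-06). Parp16, which holds Rnu5g and Gm25313, rose by 0.33 (adjusted p = 0.0184), and C030014I23Rik, which holds Gm22540, by 3.46 (adjusted p = 0.000233). Both hold these members on the opposite strand, so their own transcripts do not run through the members in the same sense. Counts over a member do not separate the mature snRNA from a longer transcript that runs through it.

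The authors also counted promoter upstream transcript (PROMPT) regions, which lie upstream of each gene start and whose RNA is a known substrate of the nuclear exosome. That table has 19 libraries and no wild type replicate 1. Of the regions listed for the members, 79 were tested, 22 were higher and 3 lower, beside 39.9% higher and 3.31% lower of all 17655 regions tested, and the median log2 fold change was 0.13 against 0.449 over all. The regions of Rnu1a1, Rnu11 and Rnu2-10 rose by 3.46 (SE 0.98, adjusted p = 0.00267), 3.37 (SE 0.89, adjusted p = 0.00119) and 3.14 (SE 0.96, adjusted p = 0.0057). The Rnu1a1 region reached at most 0.222 CPM in wild type and 0.339 in Btbd7 KO, and the Rnu11 region 0.231 and 0.254. Both regions entered the test through the Zcchc8 KO libraries, so their calls are a description. Those of Rnu1a1 and Rnu2-10 held 3 counts each over the wild type libraries, against 107 and 76 over the Zcchc8 KO libraries, ratios of 13.3 (95% counting interval 4.44 to 65.6) and 9.47 (3.12 to 46.9). With so few counts, wild type did not carry the Rnu2-10 region into the test, so its call is a description too. Upstream of Gm25541 the level went from 1.14 ± 0.72 CPM in wild type (SD, n = 3) to 5.26 ± 1.26, 4.57 ± 1.32 and 3.96 ± 1.01 in the clones (n = 4 each), a log2 fold change of 2.02 (SE 0.34, adjusted p = 7.5e-07). The region of Rnu12 did not pass (0.16). The region of Gm24407 rose by 0.57, and its counts were 1.03 to 1.30 times those of Gm24265, the U4 gene 654 bases upstream, in every one of the 19 libraries. The length of a region and its strand are not given in the sources used here.

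The clones were also compared with one another. Over the 63 tested members the joint test of a difference between clones called 17, close to the 28.5% of all genes that it called, and 11 without clone 1 replicate 2. Against wild type, 27 members were called higher and 0 lower in clone 1, beside 16.7% and 19.1% of all genes. In clone 2 the counts were 24 and 2, beside 16.1% and 16.2%, and in clone 3 they were 25 and 1, beside 14.0% and 15.3%. The lower genes were Gm22973 and Gm22935 in clone 2 and Gm22107 in clone 3. The members called higher in every clone numbered 22, beside 7.64% of all genes, and those called lower in every clone 0, beside 5.82%. Of the 22, 6 had fewer than 4 control libraries over the filter's cutoff. They entered the test through the Zcchc8 KO libraries, so their calls are a description. The other 16 were among the 36 members with at least 4 control libraries over it. With each clone fitted with wild type alone, 11 were called higher in every clone, beside 4.06% of all genes. Of the 26 members called for the mean, 24 had their largest fold change in clone 1, beside 46.8% of all genes called higher for the mean. The joint test called 14 of the 26, beside 24.1% of those genes. Gm25360 was at 192 ± 2.78 CPM in clone 1, 89.6 ± 11.4 in clone 2 and 112 ± 4.5 in clone 3 (joint adjusted p = 2.14e-10). Gm23849 differed least, with 3.75, 3.75 and 3.59 (joint adjusted p = 0.916). Clone 1 was the shallowest group, and with every library thinned to the lowest gene total it had 26 members called higher, with 20 by the joint test.

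**Figure D4:**
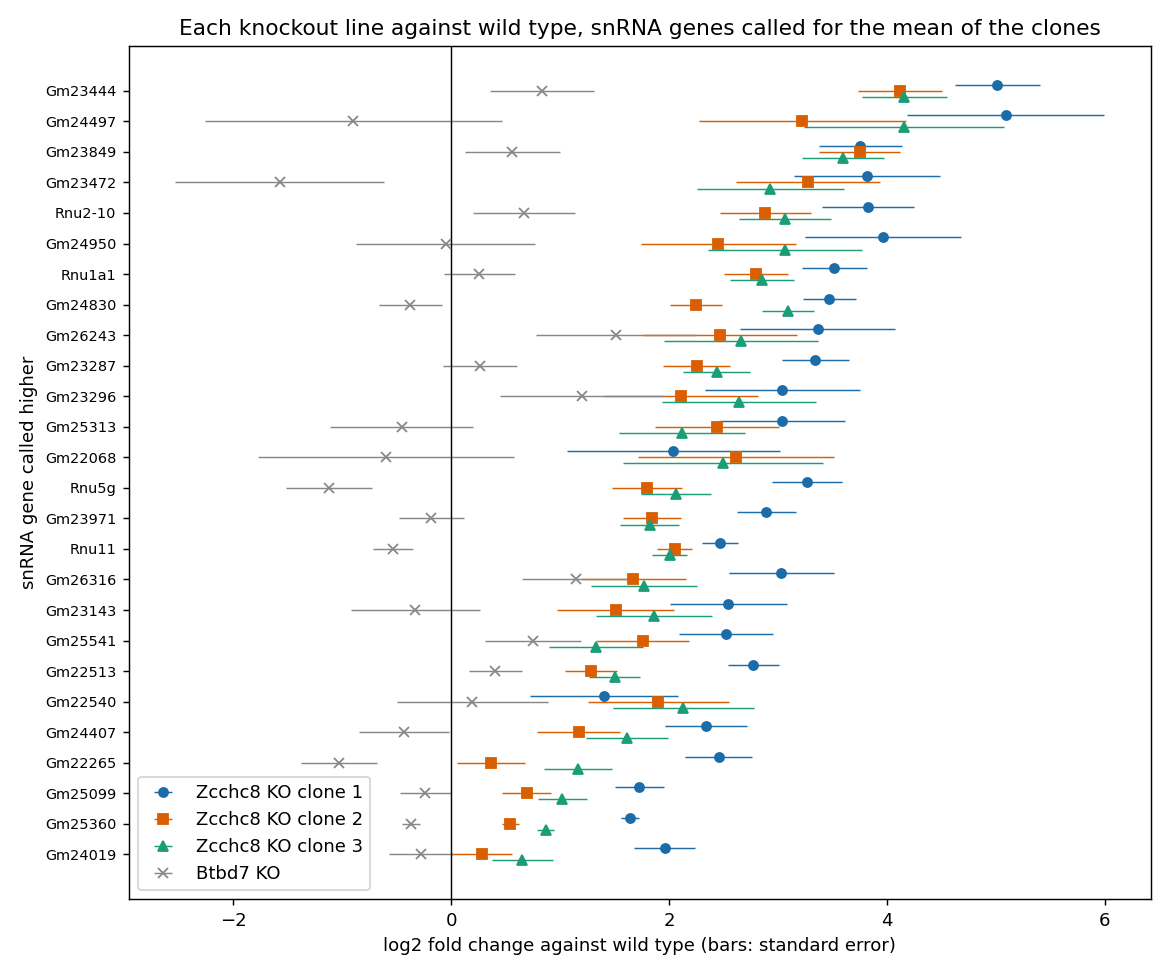
Log2 fold change against wild type, with its standard error, of the 26 members called higher for the mean of the clones, shown for clone 1, clone 2, clone 3 and Btbd7 KO. Clone 1 gives the largest value for 24 of the 26, and the Btbd7 KO values scatter around 0.

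In Btbd7 KO, the negative control, 0 members were called higher and 4 lower, beside 7.73% and 8.0% of all genes. These were Gm25360 (-0.37, adjusted p = 0.0027), Gm22107 (-1.0, adjusted p = 0.0227), Gm22265 (-1.03, adjusted p = 0.0429) and Rnu11 (-0.54, adjusted p = 0.0435). Without wild type replicate 1, Gm25360 (-0.39) and Rnu11 (-0.62) were called, and 7 members were called without wild type replicate 2. Leaving out Btbd7 KO replicate 1, 2 or 3 also left 2 calls, as did leaving out any clone 1 library, clone 2 replicate 2, 3 or 4, or clone 3 replicate 3. With Btbd7 KO in place of wild type as the control, 27 members were higher in the Zcchc8 KO clones and 0 lower, beside 18.8% and 22.2% of all genes. Without wild type replicate 1, 29 of 68 tested members were higher for the mean of the clones and 0 lower, beside 17.5% and 18.7% of all genes.

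Genes of snRNA making and assembly were read from a fixed list of 81, all of them tested. For the mean of the clones 6 rose and 21 fell, with a median log2 fold change of -0.09, beside the 16.2% and 19.9% of all genes. Of 24 genes of transcription and 3′ cleavage, which include the SNAPc and Integrator subunits, 1 rose and 6 fell. Of 12 genes of Sm ring assembly 2 rose and 6 fell, and of the 7 Sm proteins 0 rose and 1 fell. By lowest p, the genes that rose were Srrt (0.49, adjusted p = 7.8e-09), which links the cap-binding complex to RNA processing and decay, Gemin4 (1.94, adjusted p = 4.86e-05), of the SMN complex, and Sart3 (0.29, adjusted p = 0.0042), which helps U4 and U6 to pair. Those that fell were Ddx20 (-0.57, adjusted p = 5.62e-07) and Gemin5 (-0.39, adjusted p = 2.18e-05), both of the SMN complex, and Ell2 (-0.39, adjusted p = 2.72e-06), an elongation factor. In Btbd7 KO, Gemin5 was higher (0.40, adjusted p = 0.000516). Rn7sk, an abundant RNA polymerase III transcript outside the snRNA set's rule, was at 11658 ± 620 CPM in wild type and did not pass the test (0.05, adjusted p = 0.38).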

How the data were processed

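RNA from 20 libraries was read as the gene counts and PROMPT-region counts that the authors deposited, which hold whole-number counts per feature and no normalization. RNA was taken with TRIzol and spin columns and made into libraries with the TruSeq Stranded Total RNA kit of Illumina, per the labels' protocols. FastQC and STAR 2.7.3a were used, per the submitters' processing notes. The counter, its strand setting, the treatment of reads that fit several places and the build of the alignment are not given in the sources used here. Kits that fragment total RNA recover RNAs as short as snRNAs poorly, and the part this plays was not tested.

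Members and lists were chosen with earlier results of these data known. Genes were matched to GENCODE M21 (GRCm38) by identifier, and copies were compared with BLAST 2.17.0. Members were grouped as near-complete copies at 95% identity over 95% of the named gene. All genes were fitted together with edgeR 4.0.16 in R 4.3.3, with filterByExpr by group, TMM scaling, glmQLFit and glmQLFTest, 5 groups in 1 fit, and Benjamini-Hochberg adjustment with a threshold of 0.05 over the 15297 genes tested. CPM is counts over the library's gene total times its TMM factor, and standard errors are the fold change over the root of its F value. PROMPT regions were fitted in the same way with the library sizes of the gene table. Log2 ratios of 2 genes used 0.5 added to each count. On simulated counts the fit recovered 89% of genes changed by 2-fold and 92% of those changed by 4-fold, over 14815 genes, with 4.2% false calls. For the PROMPT regions it recovered 60% and 94%, over 16061 regions, with 4.9% false calls. The simulation used the same dispersion for every feature and the same change in each clone, and changed no feature of low mean count. Its rates therefore need not hold for these data.

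The text names the Rnu-named members, the 8 largest rises among the other called members, the 5 other members with the most counts, members called in Btbd7 KO and the 3 biogenesis factors of lowest p in each direction. No member was called lower. Gm24407, Gm25541 and the other members given a value were named after their values were seen. Alternatives were DESeq2 1.42.0, no TMM, other filters, equal depth, a replicate block, only the groups compared, cell lines as replicates, Btbd7 KO as control and each library left out. Sequences are printed for 9 members, and 1 that was also chosen is not reported here.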

Additional observations from a re-analysis of the deposited data

Results flagged for a closer look

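Of the 22 named snRNA genes, 13 differed between the 3 Zcchc8 KO clones by edgeR's joint quasi-likelihood test of the clones, adjusted over all genes. The same test called 28.5% of all genes and 17 of the 63 tested members, so the share over the members was not above that of all genes. The adjusted p was 2.14e-10 for Gm25360, 1.54e-06 for Gm22973, 1.59e-05 for Gm22265, 0.000257 for Gm24830, 0.000386 for Rnu5g and 0.00111 for Gm23971. It was 0.00292 for Rnu12, 0.00467 for Gm23287, 0.0275 for Gm23444, 0.0323 for Rnu11, 0.0339 for Gm25939, 0.0385 for Gm24407 and 0.0467 for Rnu1a1. Gm22973 was the one of these with a call in each direction, higher in clone 1 and lower in clone 2.

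A single library lay far from the other 3 of its group in 10 of 110 groups looked at, where chance flags about 1 in 20. In wild type replicate 1, Gm22265 was at 14.8 CPM and Gm25939 at 28.4 CPM, the highest of their groups. In wild type replicate 2, Gm24950 was at 1.04 CPM and Gm24497 at 0.174 CPM, also the highest. In Btbd7 KO the highest were Gm24497 at 0.124 CPM in replicate 3 and Gm24950 at 0.591 CPM in replicate 4. The lowest were Gm24830 at 0.929 CPM and Gm24407 at 0.332 CPM, both in replicate 2. For Gm24497 the flags rest on 3 counts in wild type replicate 2 and 1 count in Btbd7 KO replicate 3. The other libraries of both groups held 0, so these flags were fixed in advance and cannot be set against the 1 in 20. Gm23971 was highest at 46.1 CPM in clone 1 replicate 4, and Gm22107 was lowest at 1.13 CPM in clone 3 replicate 2.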

How the results depend on the processing

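The count of snRNA genes called higher was 26 and stayed between 26 and 29 with any 1 library left out. With cell lines as replicates it was 16, all called genes went from 5520 to 1092 and biogenesis factors from 27 to 2. With no filter beyond 1 count, 1 member was called lower (Gm22105, -2.15, adjusted p = 0.014) and 7 were called in Btbd7 KO. Gm22105 held 51 counts in wild type replicate 1 and 8, 0 and 4 in replicates 2 to 4, so its call leans on that library. It was not fitted with that filter and without replicate 1. With only the groups compared in the fit, 11 members were called in each clone in place of 22, and 1 in Btbd7 KO in place of 4. PROMPT regions called higher went from 22 to 14 when a mean of 10 counts was required and to 14 at equal depth. Leaving out 1 library gave 5010 to 5698 called genes, 0 members called lower, 19 to 23 called in each clone, 2 to 7 in Btbd7 KO, 11 to 22 by the joint test (11 without clone 1 replicate 2), 18 to 23 PROMPT regions and 23 to 30 factors. Of 635 values of the 22 named genes, 614 kept their direction and side of the threshold. Gm22107 turned to 0.48 (adjusted p = 0.143) with Btbd7 KO as control, and 5 lost their call: Gm26243 with Btbd7 KO as control (1.32) and, with cell lines as replicates, Gm26243 (1.93), Gm25360 (1.25), Gm22265 (2.00) and Gm25541 (1.51). Another 15, of Rnu12, Gm24265 and Gm25939, gained one. The causes were not tested. The replicate numbers showed no pairing: 0 of 40 same-numbered pairs had deviations that correlated above 0.1 (-0.058 to 0.093), and 2 of 20 libraries were closest to their own number. With the replicate block, 26 members were called higher. Depth limits the 30 untested members.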
